A study of Mus musculus with 2 samples.

Results

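Ccl2, Ccl3, Ccl4, Ccl6, Ccl7, Cxcl1, Cxcl2 and Cxcl12, 8 inflammatory or homing chemokine genes of the 32285 genes counted, were read in each kind of cell released from the bones of ovariectomized (OVX) and sham-operated mice. The genes were chosen by name, and all 8 had at least 1 unique molecular identifier (UMI, a tag that marks 1 captured RNA molecule) among the 2349 cell barcodes. The mice were female BALB/c, operated on at 10 weeks of age and killed 4 weeks after surgery, and 20 mice were pooled in each condition. Femurs and vertebrae were stripped of periosteum, and the marrow cavity of the femurs was flushed. No flushing is described for the vertebrae. Bone pieces were digested with trypsin and then overnight with collagenase D. The released cells were sorted for CD11b, F4/80 and CD68, tagged with hashtag 1 (OVX) or hashtag 2 (sham), and run as 1 droplet library that held 17681092 UMIs, with a median of 4387 per barcode. The match of hashtag to condition is that of the sample labels and was not checked against another source, and every OVX to sham ratio rests on it. Of the barcodes, 1059 carried hashtag 1, 981 carried hashtag 2, 78 carried both and 231 carried neither. As each condition was a single pool of animals, values are given as UMIs scaled to a source total of 1000000 (CPM) and as OVX to sham ratios, with no p-value. The bracketed 95% intervals are exact. Those of levels and ratios cover counting error only, not the spread between cells, which was far wider. Those of shares of cells treat the cells of 1 pool as independent. None covers the spread between animals, which was not measured.

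Chemokines are small secreted proteins that direct leukocytes along a gradient through G protein-coupled receptors. CCL2 and CCL7 draw monocytes through CCR2, CXCL1 and CXCL2 draw neutrophils through CXCR2, CCL3 and CCL4 draw monocytes and T cells, CCL6 is a constitutive CC chemokine of rodent myeloid cells, and CXCL12 holds haematopoietic cells in marrow through CXCR4. In bone, mesenchymal stromal cells are the classical source of CXCL12, whereas the inflammatory members are induced in many cell types by cytokines acting through NF-kappa B.

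In the genome (GRCm38), the CC members lay in a single stretch of 1629 kb of chromosome 11, with Ccl2 at chr11:82035571-82037453 and Ccl7 at chr11:82045712-82047525 at one end, and Ccl6 at chr11:83587882-83593087, Ccl3 at chr11:83647844-83649355 and Ccl4 at chr11:83662584-83664683 at the other. Cxcl1 at chr5:90891241-90893115 and Cxcl2 at chr5:90903871-90905938 were neighbours within 14.7 kb, and Cxcl12 stood alone at chr6:117168535-117181367. RefSeq promoters (GRCm38.p6, 250 bases before to 50 bases after the start) were at hand for 5 of the 8 members, Cxcl1, Cxcl2, Cxcl12, Ccl3 and Ccl6. Among these, a kappa B type motif, GGGA then 4 bases of any kind then CC on either strand, was found in Cxcl1 and Cxcl2, whose levels went together from cell to cell in stromal-like cells. The motif is short, and 20.7% of the 32851 promoters in the table held it. The AP-1 motif TGANTCA (7.81% of promoters) and TATAAA (13.6%) were in none of the 5. The stretches shown run from 120 to 31 bases before the start on the plus strand, at chr5:90891125-90891214 for Cxcl1 and chr5:90903779-90903868 for Cxcl2, and capitals mark the bases of the kappa B type matches, which overlap where both strands match.
Cxcl1: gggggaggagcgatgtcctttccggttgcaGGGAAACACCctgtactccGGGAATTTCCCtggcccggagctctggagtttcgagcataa
Cxcl2: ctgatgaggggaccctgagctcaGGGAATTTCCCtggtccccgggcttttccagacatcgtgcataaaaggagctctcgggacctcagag
Both windows held the stretch GGGAATTTCCC, and Cxcl1 had a further match upstream of it. A match describes these letters and is not a measured binding site.

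Cells were grouped without using any chemokine or chemokine receptor gene, so that the members did not define the groups they were read in. The groups were 209 stromal-like cells, 4 neutrophil-like groups of 620 (Stfa2-high), 492 (Jaml-high), 663 (Retnlg-high) and 224 (immature) cells, and a sixth, mixed cluster of 141 cells. Although the sample was labelled as macrophages, neutrophil-like cells made up 1999 of the barcodes. In the stromal-like cells all 10 stromal markers were present and Prg4 led, at 25966 CPM, whereas Adgre1, the gene of F4/80, had no UMI and Ptprc, the gene of CD45, stood at 5.85 CPM. The sixth cluster was read in 3 pieces, of which the 85 Arg1- and Pf4-high cells had 11 of 12 macrophage markers with a UMI (C1qc at 0) and a summed macrophage marker level of 5715 CPM. In the other pieces and sources, 4 to 8 of these markers had a UMI, and their summed level ran from 50.2 to 458 CPM. Arg1, which gives the Arg1- and Pf4-high cells part of their name, made up 4150 of their 5715 CPM. The same cells led with the platelet chemokine genes Pf4 (3480.2 CPM) and Ppbp (931 CPM). Of the other megakaryocyte markers, Itga2b and Gp9 were at 0 and Gp1bb had at least 1 UMI. These cells are therefore called by their genes here.

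The 8 members fell into 3 patterns of source, as the plot of levels by source shows. Ccl2, Ccl7, Cxcl1 and Cxcl12 were highest in stromal-like cells. Ccl3, Ccl4 and Ccl6 were highest in Jaml-high neutrophil-like cells and lowest in stromal-like cells. Cxcl2 was carried by both. Of the 7 members at 100 CPM or more in stromal-like or in all neutrophil-like cells, 3 were at least 2-fold higher in stromal-like cells, where 49.6% of all genes at that level were, and 3 were at least 2-fold lower, where 28.1% were.

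**Figure D1:**
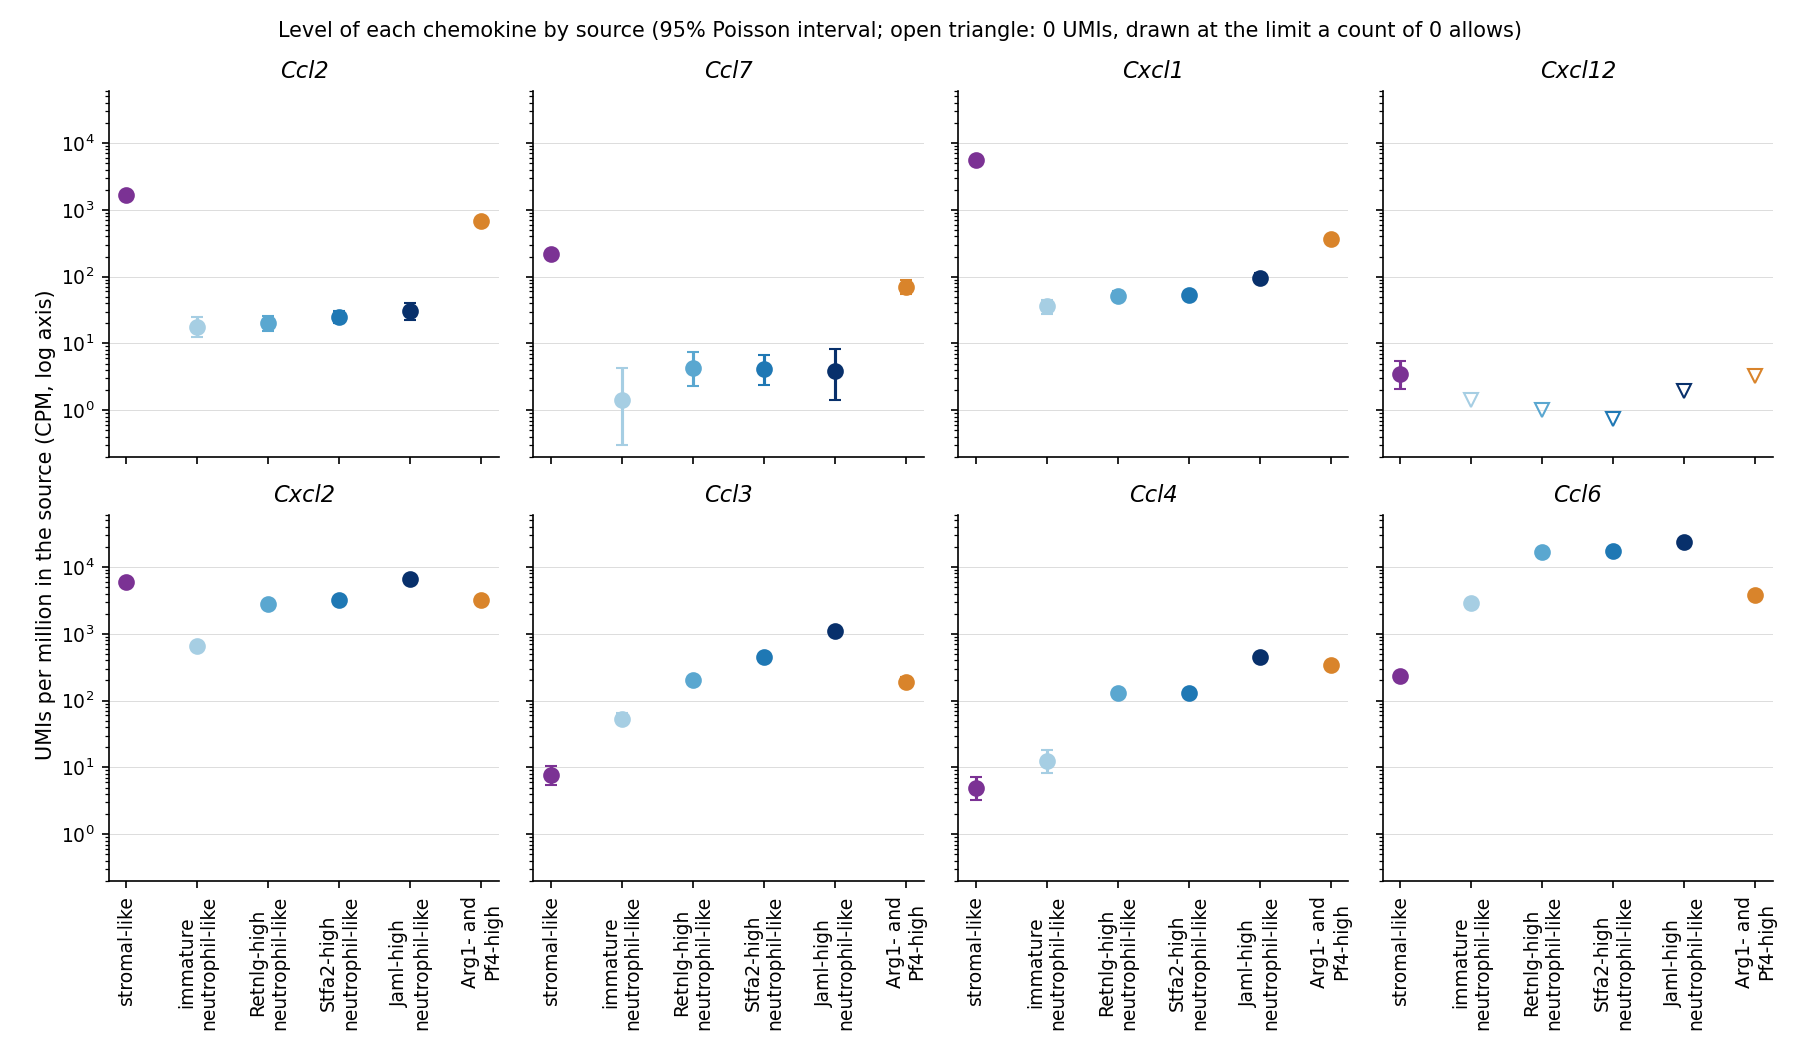
Level of each of the 8 chemokine genes (CPM, log axis) in the stromal-like cells, the 4 neutrophil-like groups and the Arg1- and Pf4-high cells, with exact 95% counting intervals; open triangles are sources with 0 UMIs, drawn at the limit a count of 0 allows. Ccl2, Ccl7 and Cxcl1 stand highest in stromal-like cells, Ccl3, Ccl4 and Ccl6 in Jaml-high neutrophil-like cells, and Cxcl2 stands at 5937 and 6502 in these sources.

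Ccl2, the main monocyte attractant, reached 1655 CPM [1621 to 1690] in stromal-like cells, which held 91.1% of its UMIs. The Arg1- and Pf4-high cells followed at 674 CPM, with a UMI in 49.4% of the cells. The 4 neutrophil-like groups lay between 17.9 and 30.8 CPM, and neighbours in that order had ratios whose intervals spanned 1. In neutrophil-like cells, Ccl2 was 3.12 times as frequent, relative to 6 stromal transcripts, as free stromal RNA carried over in the proportions of the stromal-like cells would give, and in the Arg1- and Pf4-high cells it was 116 times as frequent. For Ccl7 these values were 3.72 and 92.7, and for Cxcl1 2.24 and 18.6. No expression is read from the few neutrophil UMIs of these genes, whose origin was not tested.

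Ccl7, whose gene follows Ccl2 on the chromosome and whose product shares its receptor, was likewise highest in stromal-like cells and next in the sixth cluster, at a lower count. It stood at 218 CPM [206 to 231] in stromal-like cells, which held 91.8% of its UMIs, at 71.1 CPM in Arg1- and Pf4-high cells, and between 1.45 and 4.34 CPM in neutrophil-like groups. Of the 32 stromal-like cells with a Ccl7 UMI, 27 also had Ccl2.

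Cxcl1, a neutrophil attractant like Cxcl2, had 96.9% of its UMIs in stromal-like cells. Its stromal level was 5570.3 CPM [5508 to 5633], 21.0-fold above the next source, the sixth cluster. A UMI was found in 191 of 209 stromal-like cells (91.4%), and in 67.5% after every cell was thinned to 1000 UMIs, against 22.3% and 5.58% of neutrophil-like cells. In Jaml-high cells Cxcl1 stood at 97.0 CPM, but 1 cell alone held 34.4% of those UMIs.

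Cxcl12, the marrow homing factor, was nearly undetected. All of its 19 UMIs lay in 8 stromal-like cells, at 3.47 CPM [2.09 to 5.42], and 7 of them in 1 cell. The other 2140 barcodes had none, which at their 12211198 UMIs allows up to 0.246 CPM.

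Cxcl2, the second CXCR2 ligand, was divided between the sources, with 47.3% of its UMIs in stromal-like cells and 48.0% in neutrophil-like cells. Jaml-high neutrophil-like cells stood at 6502 CPM [6376 to 6630], 1.10-fold above the stromal-like cells at 5937 CPM [5873 to 6002]. Although the levels were close, the spread over cells was not. Within the Jaml-high cells 93.7% had a Cxcl2 UMI (87.3% after thinning) and 78 cells were needed to hold most of its UMIs, whereas 8 stromal-like cells held most of theirs, and 58.4% of stromal-like cells had a UMI after thinning. Immature neutrophil-like cells were the lowest source, at 656 CPM.

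Ccl3 and Ccl4, the macrophage inflammatory proteins 1 alpha and 1 beta, belonged to neutrophil-like cells, which held 94.8% and 82.7% of their UMIs. Jaml-high cells led for both, with 1113 CPM [1062 to 1167] of Ccl3 in 52.2% of cells and 443 CPM [411 to 477] of Ccl4 in 25.4% of cells. Of the 125 Jaml-high cells with Ccl4, 91 also had Ccl3. Outside neutrophil-like cells Ccl4 reached 337 CPM in the Arg1- and Pf4-high cells, but 1 cell held 50.8% of those 313 UMIs. In stromal-like cells Ccl3 stood at 7.68 CPM and Ccl4 at 4.94 CPM, 2.21 and 3.70 times what neutrophil RNA carried over would give.

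Ccl6 was the most even member, with a UMI in 98.0% of neutrophil-like cells and 96.6% of its UMIs there. From 2917 CPM in immature cells it stood at 16862 CPM in Retnlg-high, 17385 CPM in Stfa2-high and 23524 CPM in Jaml-high cells. Stromal-like cells had a Ccl6 UMI in 86.1% of cells, but only 22.8% after thinning, at 237 CPM, 1.80 times what neutrophil RNA carried over would give, and no expression is read from it.

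All 4 members at 100 CPM or more in neutrophil-like cells, Cxcl2, Ccl3, Ccl4 and Ccl6, were at least 2-fold higher in the mature groups together than in immature cells, where 16.3% of all genes at that level were (12.9% were 2-fold lower). Summed over mature cells, Cxcl2 stood at 3645 CPM against 656 CPM in immature cells, Ccl3 at 486 against 53.6 CPM, Ccl4 at 186 against 12.5 CPM, and Ccl6 at 18307 against 2917 CPM. Il1b, an inducer of chemokines, stood at 869 CPM in Jaml-high cells and the NF-kappa B inhibitor gene Nfkbia at 665 CPM. The receptors on the same cells were Cxcr2, from 711 CPM in immature to 2454 CPM in Jaml-high cells, Ccr1, from 386 to 1493 CPM, and Cxcr4, from 101 to 186 CPM. Of the 23 receptor genes listed, these were the 3 at 100 CPM or more in each neutrophil-like group.

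Within the stromal-like cells most UMIs of these members came from a minority. The 209 cells were grouped again, without chemokine genes, into 84 (subgroup 1), 66 (subgroup 2) and 59 cells (subgroup 3). The leading genes of subgroup 1, by fold over all other cells, included Prkg2, Sema3e and Penk. Those of subgroup 2 included Col4a1, Fabp4 and Csf2, and those of subgroup 3 Saa1, Saa2 and Chad. The 4 endothelial markers Pecam1, Cdh5, Kdr and Emcn summed to 218 CPM in subgroup 2, against 2.08 and 1.34 CPM in subgroups 1 and 3. The 10 stromal markers summed to 39039 CPM in subgroup 2. Whether some of its cells were endothelial was not tested. Of the 5 members at 100 CPM or more, 4 were at least 2-fold higher in subgroup 2 than in the others together, where 3.32% of all genes at that level were, and none was 2-fold lower, where 4.38% were. Ccl2 stood at 5168 CPM in subgroup 2, 211 CPM in subgroup 1 and 286 CPM in subgroup 3, and subgroup 2 held 81.7% of its UMIs in the whole library. Ccl7 stood at 651, 5.81 and 105 CPM in subgroups 2, 1 and 3. Cxcl1 followed the same order in part, at 12537 CPM in subgroup 2, 3863 in subgroup 1 and 985 in subgroup 3. Cxcl2 likewise stood at 14243, 2833 and 2196 CPM. The fifth member, Ccl6, stood at 206 CPM in subgroup 2, 255 CPM in subgroup 1 and 239 CPM in subgroup 3.

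Even in subgroup 2 the UMIs were concentrated. Most stromal Ccl2 UMIs came from 3 cells and most Ccl7 UMIs from 2, and a single cell of 54000 UMIs held 24.2% of Ccl2 and 33.8% of Ccl7. For Cxcl1 and Cxcl2 the numbers were 9 and 8 cells, and the deepest barcode of the library, with 141565 UMIs, held 16.6% of Cxcl1 and 19.2% of Cxcl2. The plot of UMIs per stromal-like cell shows these few cells in both tagged and untagged groups. An untagged cell of 71055 UMIs was of the same kind, with 1438 UMIs of Ccl2, 226 of Ccl7, 3179 of Cxcl1 and 2355 of Cxcl2.

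**Figure D2:**
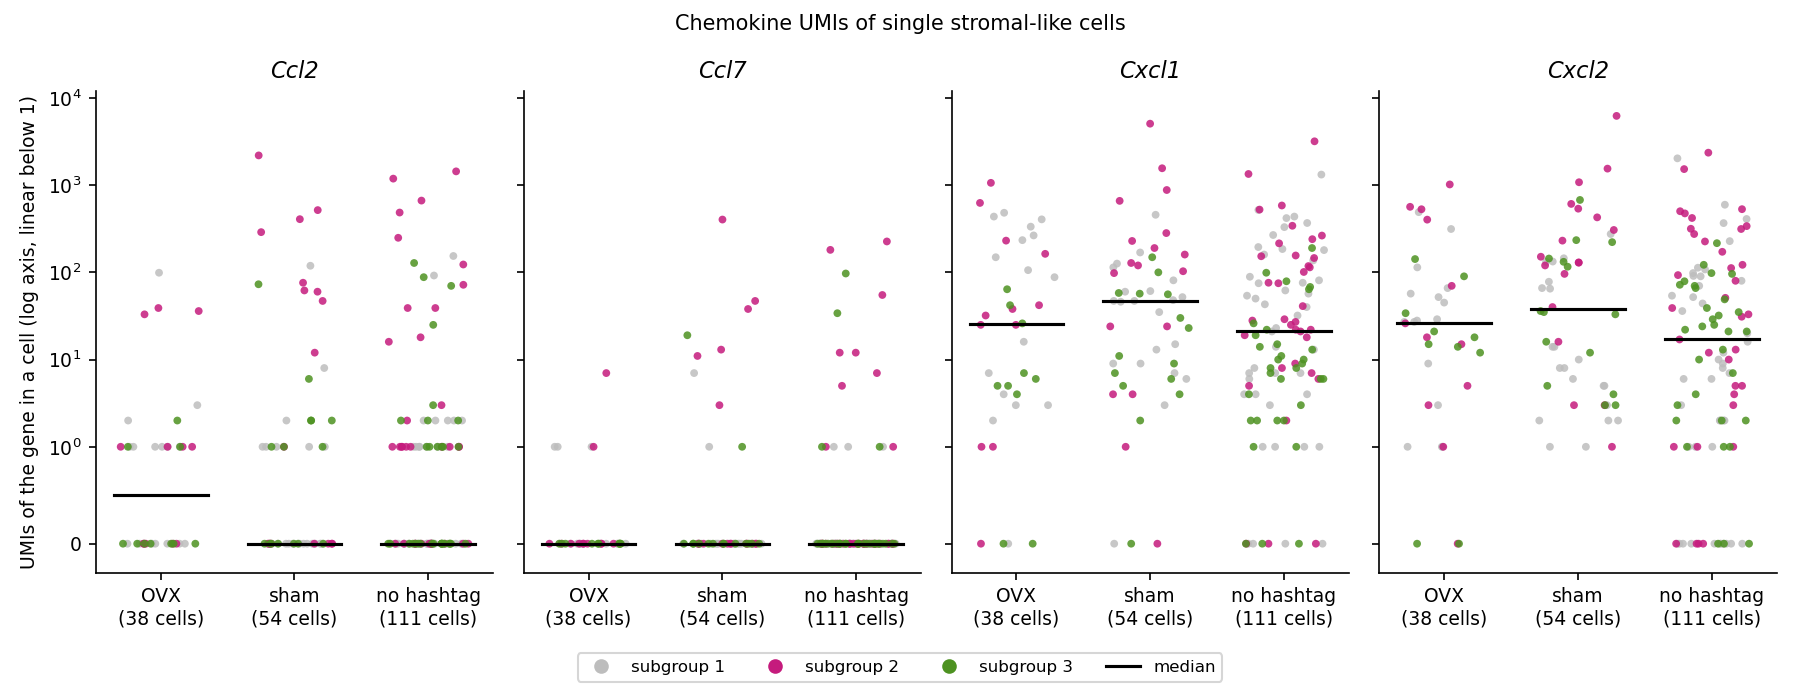
UMIs of Ccl2, Ccl7, Cxcl1 and Cxcl2 in each stromal-like cell (log axis, linear below 1) with OVX, sham or no hashtag, coloured by subgroup, with the median as a bar. The highest sham cells reach 2191 UMIs of Ccl2 and 6220 of Cxcl2, against 99 and 1018 in OVX cells.

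Each member was compared only with genes at 100 CPM or more in its leading source, 1555 in stromal-like and 1158 in neutrophil-like cells. Across the 209 stromal-like cells, which share 1 library, the level (log of counts scaled to 10000) of Ccl7 followed Ccl2 most closely (Pearson r = 0.74). Next came the neutrophil attractant genes Cxcl5 and Cxcl3 (each 0.49). For Cxcl1 the closest was Cxcl2 (0.73), and next the NF-kappa B target Sod2 (0.53) and Ccl2 (0.44). Cxcl12, with 8 cells, had none of the compared genes above 0.24. Over the 1999 neutrophil-like cells the genes most like Cxcl2 were Cxcl3 (0.54), Ccl6 (0.44) and Fth1 (0.42), and those most like Ccl3 were Hcar2 (0.40), Ctsb (0.38) and Cxcl2 (0.35). Ccl4 followed no gene closely, with Ccl3 at 0.29. These are descriptions of sparse counts, in which cells share depth and source.

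OVX and sham were then set against each other within each source, to describe the level of each chemokine in cells of 1 group. With 1 pool and 1 hashtag per condition, ovariectomy, pool and hashtag cannot be told apart. Hashtags gave 38 OVX and 54 sham stromal-like cells, with median totals of 25198 and 23128 UMIs, and 111 stromal-like cells carried neither hashtag. The median untagged cell held 73 hashtag 1 UMIs and 306 hashtag 2 UMIs, where the median sham cell held 4732.5 of the latter. When the hashtag with at least 80% of a cell's hashtag UMIs decided, the numbers were 28 OVX and 112 sham cells, and the log2 ratio of Ccl2 was -3.78 against -3.79 with the hashtag calls used here. Of those 112 cells, 54 carried neither hashtag by the calls used here. The median OVX cell itself held 310 hashtag 2 UMIs, no fewer than the median untagged cell. The like ratio is therefore no check of the hashtag calls.

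In stromal-like cells 3 of the 5 members at 100 CPM or more, Ccl2, Ccl7 and Cxcl2, were at least 2-fold lower in OVX, where 1.28% of all genes at that level were, and none was 2-fold higher, where 1.45% were. The plot of OVX to sham ratios gives all sources side by side. The plot of ratios without the highest cells gives, for chosen genes and sources only, the ratios when both conditions lose their highest cells.

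For Ccl2 the OVX stromal-like cells held 226 UMIs (175 CPM) and the sham cells 3884 UMIs (2423 CPM), a ratio of 0.0721 [0.0627 to 0.0824], while the untagged cells stood at 2051 CPM. UMIs per cell ran from 0 through a median of 0.5 to 99 in OVX and from 0 through a median of 0 to 2191 in sham. The 2 conditions thus overlapped in most of their cells and differed in the upper tail. At least 1 UMI was seen in 19 of 38 OVX and 26 of 54 sham cells. At least 10 UMIs were seen in 4 OVX cells (10.5% [2.94 to 24.8]) against 11 sham cells (20.4% [10.6 to 33.5]). As these intervals treat the cells of 1 pool as independent, they do not compare the conditions. The highest sham cell held 56.4% of the sham UMIs and the highest OVX cell 43.8% of the OVX UMIs. Without the highest cell of each condition the ratio was 0.0914, and without the highest 3 it was 0.0832. Both conditions lost their highest cells at once, so these values do not show how far the ratio rests on the highest sham cell alone. Leaving out the 2% of barcodes with the most UMIs in the library brought the log2 ratio from -3.79 to -1.56.

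Ccl7 had 11 UMIs in OVX (8.50 CPM) and 543 in sham (339 CPM), a ratio of 0.0251 [0.0125 to 0.0453]. No OVX cell had 10 UMIs or more, against 6 of 54 sham cells, and 1 sham cell held 74.2% of the sham UMIs. Without the highest cell of each condition the ratio was 0.0348, with sham at 90.4 CPM, and without the highest 3 it rested on 2 and 55 UMIs. The highest Ccl7 and Ccl2 cell in sham was the same cell, with 403 and 2191 UMIs.

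Cxcl2 stood at 3292 CPM in OVX against 8915 CPM in sham stromal-like cells, a ratio of 0.369 [0.357 to 0.382], with untagged cells between them at 5742 CPM. Per cell the median was 26.5 UMIs (0 to 1018) in OVX and 38 UMIs (1 to 6220) in sham. The highest sham cell held 43.5% of the sham UMIs, and without the highest cell of each condition the ratio was 0.466 and without the highest 3 it was 0.460. Among OVX cells 71.1% had 10 UMIs or more, against 66.7% among sham cells, in the opposite order to the summed level.

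Cxcl1 stood at 3816 CPM in OVX against 7145 CPM in sham stromal-like cells, a ratio of 0.534 [0.516 to 0.552]. Per cell it ran from 0 through a median of 25.5 to 1062 UMIs in OVX and from 0 through 47 to 5064 in sham. Without the highest cell of each condition the ratio was 0.708 and without the highest 3 it was 0.853. Cxcl12 was counted 2 times in OVX against 5 times in sham, a ratio of 0.495 [0.0472 to 3.03], and no difference was detectable at this depth. Ccl6 was 1.57-fold higher in OVX [1.36 to 1.81], at 335 against 213 CPM, but 1.14-fold without the highest cell of each condition and 0.992 without the highest 3. The neutrophil transcripts S100a8 and S100a9 together were also higher in those OVX cells (3299 against 1478 CPM).

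The ratios differed between subgroups, a difference that was not tested. In subgroup 2 (12 OVX and 18 sham cells) 4 of 5 members were at least 2-fold lower in OVX, where 3.89% of all genes at that level were, and none was 2-fold higher, where 5.53% were, with Ccl2 at 384 against 5977 CPM (ratio 0.0642), Ccl7 at a ratio of 0.0326, Cxcl1 at 0.494 and Cxcl2 at 0.478. The Ccl2 ratio there was 0.111 without the highest cell of each condition and 0.0180 without the highest 3, on 4 OVX and 547 sham UMIs. Without the highest cell Ccl7 was at 0.0185, on 1 OVX and 112 sham UMIs, Cxcl1 at 0.498 and Cxcl2 at 0.552, then under 2-fold. Without the highest 3, Cxcl1 was at 0.337 and Cxcl2 at 0.403. In subgroup 1 Ccl2 had a ratio of 0.649 [0.500 to 0.842], Cxcl1 1.43 [1.34 to 1.52] and Cxcl2 1.03 [0.943 to 1.12]. That Ccl2 ratio mostly compares 1 cell with 1 cell, which held 99 of the 110 OVX and 119 of the 134 sham UMIs. In subgroup 3 the ratios were 0.0703 for Ccl2, on 4 OVX and 88 sham UMIs, 0.476 for Cxcl1 and 0.320 for Cxcl2. There 1 cell held 73 of the sham Ccl2 UMIs.

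Of the other chemokines listed (32 genes), 4 could be compared in stromal-like cells, with a median ratio of 1.06. Among them 1 was at least 2-fold lower in OVX and 1 at least 2-fold higher, where 1.28% and 1.45% of all genes at that level were. The neutrophil attractant gene Cxcl5 stood at 10.05 CPM in OVX against 196 CPM in sham, and the CCR6 ligand gene Ccl20 at 101 CPM against 5.61 CPM. How far these 2 values rest on single cells was not measured. Among 12 dissociation and stress genes 7 could be compared, and the heat shock genes Hspa1a (ratio 0.203) and Hspa1b (0.250) were at least 2-fold lower in OVX. Their part in the chemokine ratios was not tested. Nfkbia, the only inducer or feedback gene above 100 CPM in stromal-like cells, had a ratio of 0.906.

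**Figure D3:**
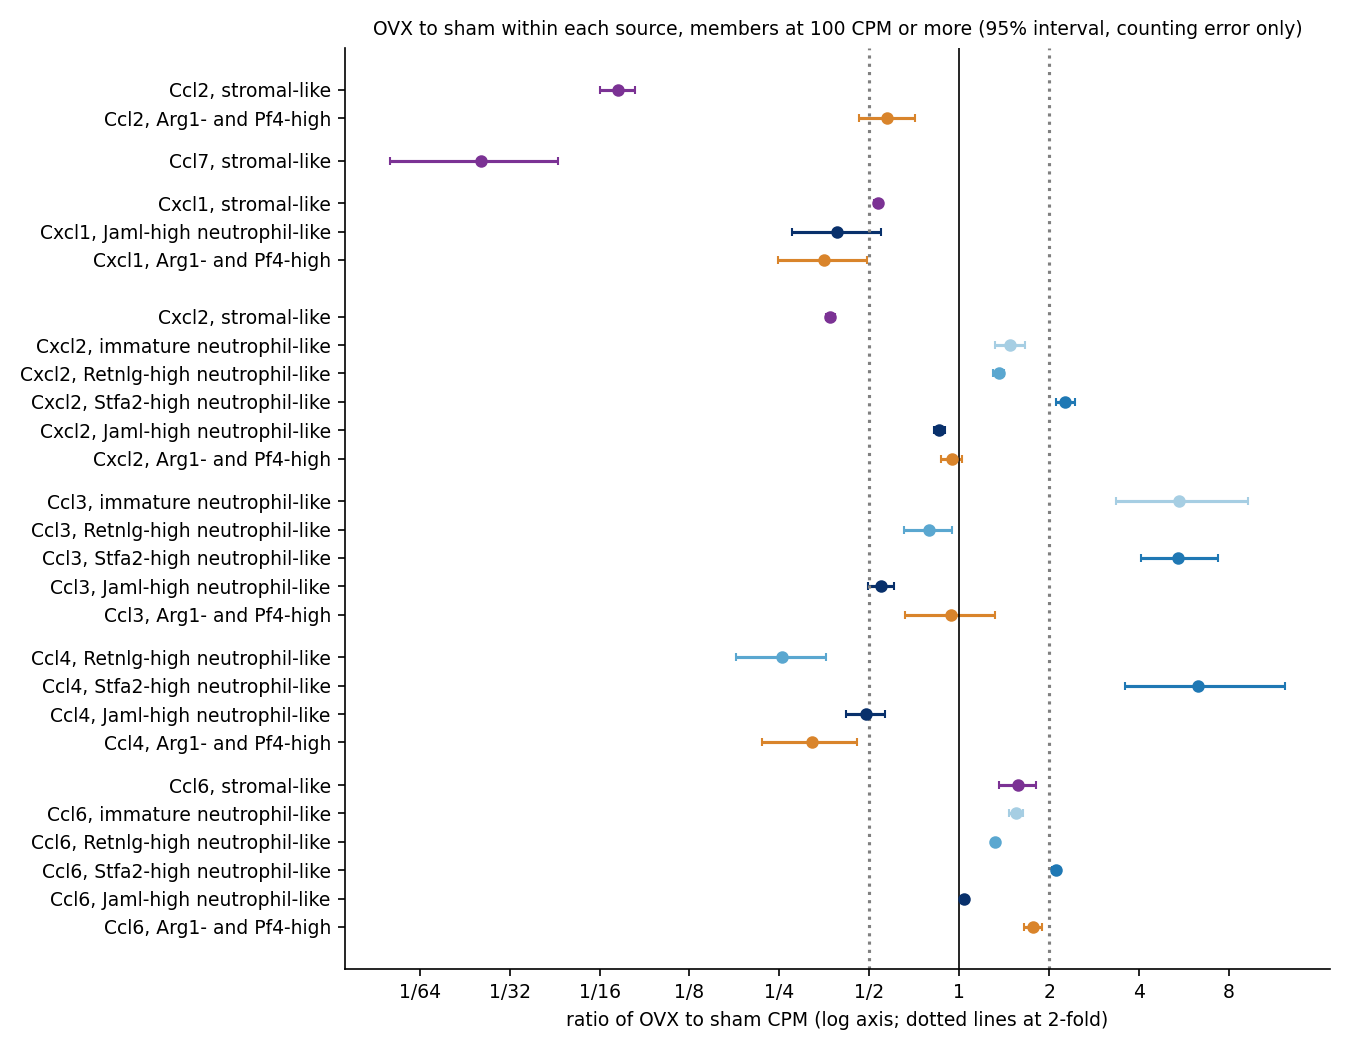
OVX to sham ratio (log axis) of each chemokine gene in each source where it reached 100 CPM in either condition, with exact 95% counting intervals and dotted lines at 2-fold. Ccl2, Ccl7 and Cxcl2 are more than 2-fold lower in OVX in stromal-like cells. Cxcl2, Ccl3, Ccl4 and Ccl6 are more than 2-fold higher in OVX in Stfa2-high neutrophil-like cells.

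Over all tagged neutrophil-like cells (975 OVX, 854 sham), none of the 4 members at 100 CPM or more was 2-fold apart between conditions. Of all genes at that level, 2.59% were 2-fold higher and 0.862% 2-fold lower in OVX. The ratios were 1.38 [1.35 to 1.42] for Cxcl2, 1.35 [1.27 to 1.44] for Ccl3, 0.796 [0.721 to 0.880] for Ccl4 and 1.44 [1.43 to 1.46] for Ccl6. Without the highest cell of each condition the Ccl4 ratio was 1.03 [0.916 to 1.15], so its lower level in OVX rested on single cells. The ratios of Cxcl2, Ccl3 and Ccl6 were then 1.40, 1.33 and 1.45. The make-up of these cells differed by condition. Stfa2-high cells were 466 of the 975 OVX and 120 of the 854 sham cells, and immature cells 74 and 112. In the mature groups together, with no cell left out, the ratios were 1.20 for Cxcl2, 1.13 for Ccl3, 0.672 for Ccl4 and 1.25 for Ccl6. The part of the make-up in these ratios was not tested. The 4 neutrophil-like groups are given in turn.

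In Stfa2-high cells (466 OVX, 120 sham) all 4 were at least 2-fold higher in OVX, where 4.89% of all genes at that level were. Cxcl2 stood at 3476 against 1537 CPM, a ratio of 2.26 [2.10 to 2.43]. Ccl3 stood at 517 against 95.7 CPM, a ratio of 5.41 [4.07 to 7.34], with a UMI in 231 of 466 OVX and 18 of 120 sham cells, or in 21.6% and 8.33% after thinning. Ccl4 stood at 148 against 23.4 CPM, a ratio of 6.32 [3.58 to 12.3] on 511 and 12 UMIs. Ccl6 stood at 18823 against 8961 CPM, a ratio of 2.10 [2.04 to 2.17]. The OVX cells of the group were also deeper, with a median of 5980.5 UMIs against 1837.5 in sham. In cells with totals between the quartiles of the sham cells (269 OVX, 60 sham), the ratios were 2.70 [2.31 to 3.18] for Cxcl2 and 3.87 [2.36 to 6.83] for Ccl3. They were 3.59 [1.62 to 9.92] for Ccl4, with sham at 43.2 CPM, and 1.37 [1.31 to 1.44] for Ccl6. Only the Ccl6 ratio came under 2-fold, but the Ccl4 interval also reached below it. No ratio fell under 2-fold without the 3 highest cells of each condition, at 2.73, 7.59, 6.08 and 2.37 in the same order.

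Jaml-high cells (267 OVX, 206 sham), the highest source of the neutrophil members, went the other way for Ccl3 and Ccl4. Ccl3 stood at 853 against 1559 CPM, a ratio of 0.547 [0.497 to 0.602], and Ccl4 at 326 against 671 CPM, a ratio of 0.485 [0.416 to 0.566]. The shares of cells with a UMI were 50.2% and 55.8% for Ccl3, and for Ccl4 28.1% and 23.3%, the reverse order of its level. Cxcl2 (0.858) and Ccl6 (1.03) were within 2-fold. Of the 5 members compared, Cxcl1 and Ccl4 were 2-fold lower, where 1.79% of all genes at that level were, and none was 2-fold higher, where 3.71% were. The Cxcl1 ratio of 0.390 was 0.918 without the highest cell of each condition.

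In Retnlg-high cells (168 OVX, 416 sham) 1 of 4 members was 2-fold lower, where 0.801% of all genes at that level were, and none 2-fold higher, where 1.68% were. That was Ccl4, at 44.4 against 174 CPM, and 1 sham cell held 69.9% of the sham UMIs, without which and its OVX counterpart the ratio was 0.652. Cxcl2 (1.35), Ccl3 (0.789) and Ccl6 (1.32) were within 2-fold. In immature cells (74 OVX, 112 sham) 1 of 3 members was 2-fold higher, where 0.931% were, namely Ccl3 at 112 against 20.6 CPM, a ratio of 5.43 [3.33 to 9.22] on 84 and 21 UMIs, and 3.40 without the 3 highest cells of each condition. Cxcl2 (1.48) and Ccl6 (1.55) were higher in OVX by less.

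In the Arg1- and Pf4-high cells (23 OVX, 53 sham), the group with the highest summed macrophage marker level, 2 of 6 members were at least 2-fold lower in OVX, where 2.94% of all genes at that level were, and none was 2-fold higher, where 6.38% were. Cxcl1 stood at 158 against 447 CPM, a ratio of 0.353 [0.247 to 0.493]. Ccl4 had a ratio of 0.320, but all 35 of its OVX UMIs came from 1 cell. Ccl2 stood at 414 against 721 CPM, a ratio of 0.574 [0.460 to 0.711], Cxcl2 at 0.942, Ccl3 at 0.939 and Ccl6 at 1.77. The neutrophil transcripts S100a8 and S100a9 together were also higher in these OVX cells, at 34877.5 against 12605.4 CPM. Over both conditions Ccl6 here was 2.77 times what neutrophil RNA carried over would give. The part of such RNA in the Ccl6 ratio was not tested. The Ccl3 ratio was 0.646 without the highest cell of each condition and 0.0978 without the highest 3, on 2 OVX and 61 sham UMIs. In the whole sixth cluster 3 of 6 members, Ccl2 (0.472), Cxcl1 (0.325) and Ccl4 (0.253), were at least 2-fold lower and none higher, where 3.52% of all genes at that level were lower and 3.52% higher. The make-up of that cluster differed by condition, as the Arg1- and Pf4-high cells were 23 of its 46 OVX but 53 of its 73 sham cells. They held 626 of its 639 Ccl2 UMIs. The part of this make-up in the ratios of the whole cluster was not tested.

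**Figure D4:**
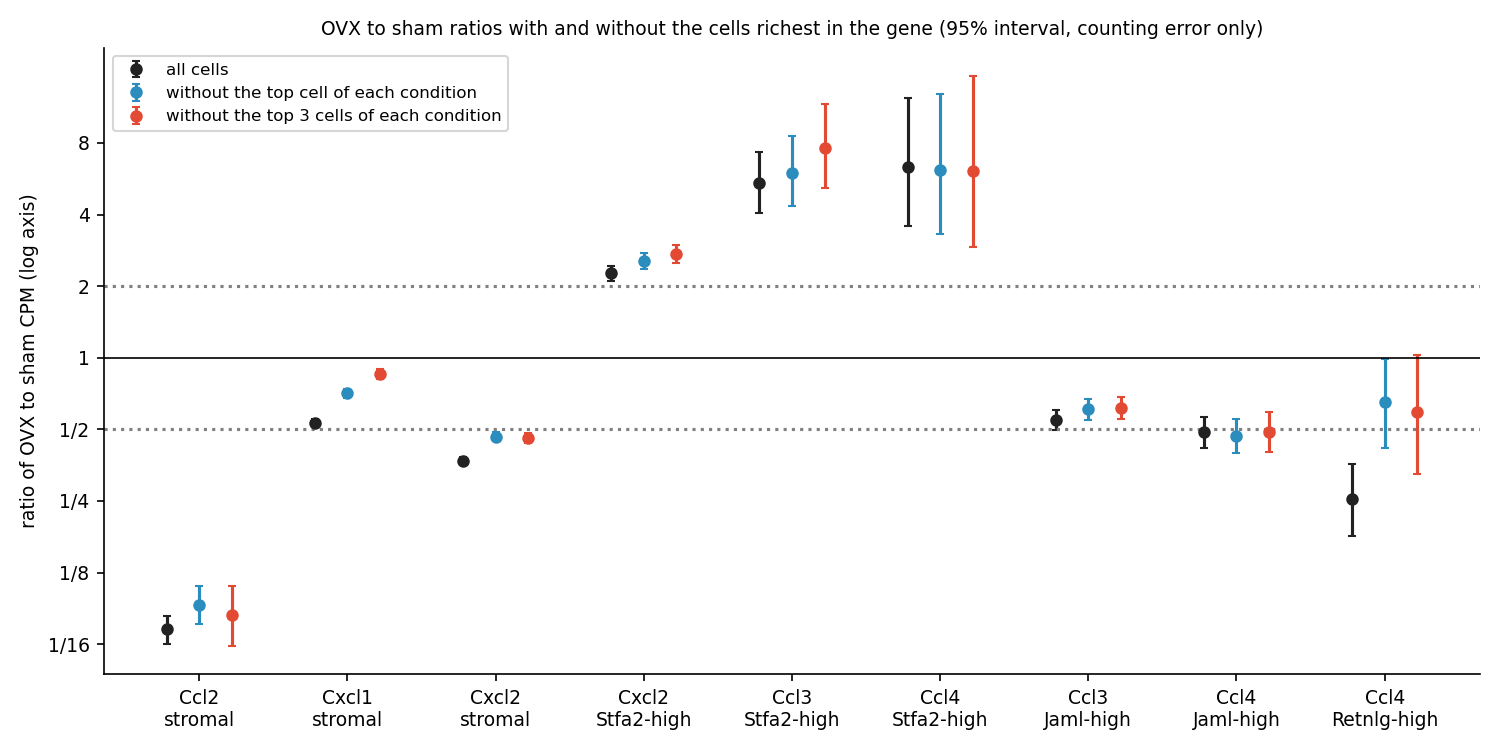
OVX to sham ratio (log axis) of chosen members, with all cells and without the highest or the 3 highest cells of each condition. Bars are 95% counting intervals. Drawn are Ccl2, Cxcl1 and Cxcl2 in stromal-like cells and Cxcl2, Ccl3 and Ccl4 in Stfa2-high cells. Ccl3 and Ccl4 in Jaml-high cells and Ccl4 in Retnlg-high cells follow. Other ratios, among them stromal Ccl7 and Jaml-high Cxcl1, are not drawn. With cells left out of both conditions together, stromal Ccl2 stays between 0.0721 and 0.0914, while stromal Cxcl1 moves from 0.534 to 0.853.

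Over all tagged cells, without regard to source, 2 of 6 members at 100 CPM or more were at least 2-fold lower in OVX, where 1.58% of all genes at that level were, namely Ccl2 (log2 ratio -3.49) and Cxcl1 (-1.46), and none was 2-fold higher, where 1.92% were. Stromal-like cells were 3.59% of OVX and 5.50% of sham barcodes. When the composition of sources was held fixed the values were -3.21 and -0.90. For Ccl3 (0.66) and Ccl6 (0.82) the values with composition held fixed were 0.22 and 0.56.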

How the data were processed

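Bones of 2 pools of mice gave 1 droplet library with hashtags, for which the authors deposited whole-number UMI counts per gene, hashtag and barcode (Cell Ranger 6.0.1 per the submitters' processing notes, 6.0.0 in the matrix header, mouse build mm10). The study loaded 1037 OVX and 1084 sham cells, and the file held 2349 barcodes, all distinct and all used. Conditions came from the hashtags with HTODemux (Seurat 5.3.0 in R 4.3.3, centred log ratio, positive quantile 0.99). Scrublet marked 1 doublet, which is too few to have worked, so none was removed, and cells with both hashtags entered no OVX to sham comparison. Cells were clustered with scanpy 1.11.5 (counts scaled to 10000, log, 2000 variable genes less chemokines and receptors, 30 components, 15 neighbors, Louvain at the lowest resolution with 6 clusters of at least 10 cells), and named from marker lists. Summed counts gave CPM with exact Poisson, conditional binomial (ratios) and Clopper-Pearson (shares) 95% intervals, and a count of 0 allows up to 3 counts. Ratios were counted where either condition reached 100 CPM, against 2-fold. Thinning to 1000 UMIs left out 171 cells. Named genes were the 8 members, other chemokines and receptors at 100 CPM or more, and inducer and stress genes. The 3 genes most alike, among those at 100 CPM or more in the leading source, were named as well. Members and lists were chosen with earlier results of these data known. The intervals were tested on simulated counts with known folds. These were drawn from the counting model that the intervals assume, so the test does not cover spread between cells. Hashtag counts were rows of the same matrix.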

Additional observations from a re-analysis of the deposited data

Results flagged for a closer look

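For 3 genes the OVX to sham ratio lay past 2-fold, or near it, on opposite sides of 1 in different sources, and in each case the difference between sources was not tested, as each condition was 1 pool. Cxcl2 had a ratio of 2.26 in Stfa2-high neutrophil-like cells and 0.369 in stromal-like cells. Ccl3 had a ratio of 5.43 in immature neutrophil-like cells, on 84 and 21 UMIs, and 0.547 in Jaml-high cells. Ccl4 had a ratio of 6.32 in Stfa2-high cells, on 511 and 12 UMIs, and 0.253 in the sixth cluster, where all 35 OVX UMIs came from 1 cell.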

How the results depend on the processing

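The number of members highest in stromal-like cells was 4, and 4 or 5 under 8 alternatives (5 with 1000 variable genes or with sources set from each cell's own markers). The number at least 2-fold lower in OVX stromal-like cells was 3, 1 with doublets and the 2% of barcodes with the most UMIs left out, and 2 with equal weight per cell, after thinning or without the highest cell. Over all neutrophil-like cells together, none of the members at 100 CPM or more was past 2-fold under 11 alternatives. Single neutrophil-like groups were not part of this count. With source composition held fixed, the log2 ratios over all cells were -3.21 for Ccl2, -0.90 for Cxcl1, -0.47 for Cxcl2, 0.22 for Ccl3, -0.53 for Ccl4 and 0.56 for Ccl6. The log2 ratio of Cxcl12 in stromal-like cells, -1.01 on 7 UMIs, turned to 0.27 with the 80% hashtag rule and, under 2 alternatives chosen after seeing the data, to 0.069 in subgroup 2 and 0.37 in cells with little S100a8 and S100a9. Over the alternatives not chosen after seeing the data, the stromal log2 ratio ran from -3.79 to -1.56 for Ccl2, -5.44 to -1.81 for Ccl7 and -0.91 to -0.32 for Cxcl1. Subclustering the sixth cluster and matching depth in Stfa2-high cells were also chosen after seeing the data. The causes were not tested. No paired analysis was possible because each condition was 1 pool in 1 library. Ccl7 in OVX stromal-like cells rested on 11 UMIs and Cxcl12 on 7 in all, so counting error alone is wide for both.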

Other observations

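The Arg1- and Pf4-high cells carried more of the other chemokine genes than any other source. Of 32 genes outside the 8 members, 10 stood at 100 CPM or more there, against 3 in stromal-like cells and at most 2 in each neutrophil-like group. Of genes of any kind, 1770 reached 100 CPM in either condition there, 1725 in stromal-like cells and 1182 to 1455 in the neutrophil-like groups. The 10 included Pf4 and Ppbp, the leading genes of these cells, of which Pf4 gave them their name. Highest of the 10 was Cxcl3, a further CXCR2 ligand gene, at 10843 CPM. It stood at 7858 CPM in Jaml-high neutrophil-like cells and 824 CPM in stromal-like cells. Ccl22 (268 CPM) and Ccl17 (204 CPM), both CCR4 ligand genes, and Cxcl16 (141 CPM) were also above 100 CPM in the Arg1- and Pf4-high cells. In stromal-like cells Ccl5, a T cell and monocyte attractant gene, stood at 4357 CPM, and the decoy receptor genes Ackr2 and Ackr3 at 231 and 131 CPM.

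Most of the stromal-like cells, 111 of 209, carried neither hashtag, and their levels of Ccl2 (2051 CPM), Cxcl1 (5788 CPM) and Cxcl2 (5742 CPM) lay between those of OVX and sham cells.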
